A study of Mus musculus with 2 samples.

Results

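Genes of 10 enzymes and cofactors that remove reactive oxygen species or make and use glutathione were followed across bone marrow cell classes: the peroxiredoxins Prdx1 and Prdx2, thioredoxin (Txn1), the glutathione peroxidases Gpx1 and Gpx4, catalase (Cat), the superoxide dismutases Sod1 and Sod2, the modifier subunit of glutamate-cysteine ligase (Gclm) and the pi-class glutathione transferase Gstp3. They were taken by name from the gene columns of 2 single-cell count tables, and all 10 were among the 24393 genes found in both tables. Cells were bone marrow cells of ICR mice, an outbred stock, aged 7 to 8 weeks, from which lineage-positive cells had been removed with magnetic beads, so the material is enriched for stem and progenitor cells. The hypoxia library came from mice kept for 13 days in a chamber at 52.93 kPa, the pressure of an altitude of 5000 m, with oxygen at 19.5%. The control library came from mice killed when they reached Xining, so the controls did not spend those days alongside the treated animals, and time, age and handling cannot be told apart from hypoxia. Each condition had 1 library, and no source used here states how many mice it held. No test between conditions was therefore possible, and every interval below covers counting error only. Differences between animals of this outbred stock and between library preparations likewise cannot be told apart from hypoxia.

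Red cell precursors carry iron, haem and dense mitochondria, and their progeny live for weeks without a nucleus, so the lineage is known for a strong peroxide defence. Superoxide dismutases turn superoxide into hydrogen peroxide, Sod1 in the cytosol and Sod2 in mitochondria. Catalase, peroxiredoxins and glutathione peroxidases then remove the peroxide: peroxiredoxins draw electrons from thioredoxin, and Gpx1 and Gpx4 from glutathione, whose synthesis is limited by the ligase that Gclm regulates. Gpx4 differs from Gpx1 in that it reduces lipid peroxides within membranes, and glutathione transferases such as Gstp3 couple glutathione to electrophiles.

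Gpx1 and Gpx4 are selenoproteins, and both hold an in-frame TGA codon that is read as selenocysteine, the residue of their active site. The coding stretches around that codon (GENCODE vM21, GRCm38, plus strand, the codon in capitals) are shown because both genes encode the same kind of enzyme, while in 11 of 13 cell classes Gpx1 was above and Gpx4 below its control level in hypoxia. The codon lies at bases 108339451 to 108339453 of chromosome 9 in Gpx1 and at bases 80054737 to 80054739 of chromosome 10 in Gpx4.
Gpx1: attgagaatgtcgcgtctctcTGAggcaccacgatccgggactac
Gpx4: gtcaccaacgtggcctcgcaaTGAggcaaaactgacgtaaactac

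Several of these genes are textbook targets of the antioxidant factor NRF2, which binds antioxidant response elements. Promoter windows of 300 bases (RefSeq, GRCm38.p6) matched all 10 genes, with 4 windows for Gpx4 and 1 for each other gene. The element's core TGACNNNGC, searched on both strands, was present in windows of 3 of the 10 genes, Prdx1, Sod1 and Gclm, and in 12.4% of the 32851 windows of all genes. Stretches of 61 bases around the 3 matches are shown, plus strand of the genome, with the match in capitals, so that the letters can be compared between the 3 genes. Each match lies on the strand opposite to the gene. They are at chr4:116685440-116685500 for Prdx1, chr16:90220680-90220740 for Sod1 and chr3:122245397-122245457 for Gclm, and the match begins 133, 56 and 134 bases before the start of the gene.
Prdx1: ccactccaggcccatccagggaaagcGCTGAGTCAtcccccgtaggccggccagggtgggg
Sod1: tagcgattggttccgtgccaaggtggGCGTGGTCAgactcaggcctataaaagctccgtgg
Gclm: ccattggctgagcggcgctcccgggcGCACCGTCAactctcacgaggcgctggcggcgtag
The erythroid GATA letters AGATAA were present in 0 of the 10 genes' windows and in 11.2% of all windows, and the hypoxia element core ACGTG in those of 3 genes (Gpx1, Gclm and Gstp3) and in 19.6% of all. Such a match is a description of the letters and not a binding site.

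After filtering, 6280 hypoxia cells and 3914 control cells remained, with medians of 21345 and 32166 unique molecules (UMIs) per cell, and 23 cell index numbers were found in both libraries. Cells were placed in classes by the UMIs per 10000 of marker genes, none of which is among the 10 genes. Outside the early stage, an erythroid cell had at least 8 per 10000 of Klf1, Epor, Aqp1, Ermap and Rhag together. Within a factor of 1.5 of that limit lay 131 hypoxia and 142 control cells. Erythroid cells were split by globin at 8 and 64 per 10000 into a globin-low (2101 hypoxia and 1809 control cells), a globin-onset (588 and 254) and a globin-high stage (634 and 132). Cells under the lower globin limit that still had Gata2 beside Car1 formed an early stage (115 and 119). For it, 2 per 10000 of the same erythroid genes was enough, and 186 hypoxia and 122 control cells were near that lower limit. The other 9 classes held between 51 and 646 cells per library. The stages are ranges of a score: 271 hypoxia and 144 control cells were near the lower globin limit, and 270 and 71 near the upper one. When cells were clustered instead of gated, most globin-low cells fell into clusters of nearly 1 library each, the largest with 986 hypoxia and 16 control cells and the largest of the control with 27 and 827. Outside the erythroid stages, RNA of erythroid genes was measured to gauge free RNA. Hba-a1 was at 0.229% to 0.671% of its erythroid level in hypoxia and 0.0259% to 0.185% in control, and Car1 at 0.908% to 4.69% and 0.503% to 2.83%. Aqp1, a gene of the erythroid gate, was at 1.18% to 13.0% and 0.719% to 17.6%, highest in megakaryocytes in hypoxia and in Gata2 progenitors in control. Prdx2 stood at 4.23% to 22.7% and 4.30% to 28.8% of its erythroid level in those classes.

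Levels are UMIs of a gene scaled to the total of the class (CPM), with hypoxia first in each pair below. The 10 genes divided the marrow differently. Prdx2, Gpx1, Sod1 and Gclm had their highest level in an erythroid stage in both libraries, as did Sod2. Neutrophils had the highest Txn1 and the lowest Prdx1, Prdx2, Cat, Sod1 and Sod2 in both libraries. For Prdx2 and Sod2 in control, their intervals overlap those of T/NK/ILC cells. Megakaryocytes had the highest Gpx4 and, with intervals that overlap those of monocyte/dendritic cells, the highest Prdx1. Basophil/mast cells had the highest Gstp3, with intervals that overlap those of neutrophils. The map of levels by cell class shows these extremes.

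**Figure D1:**
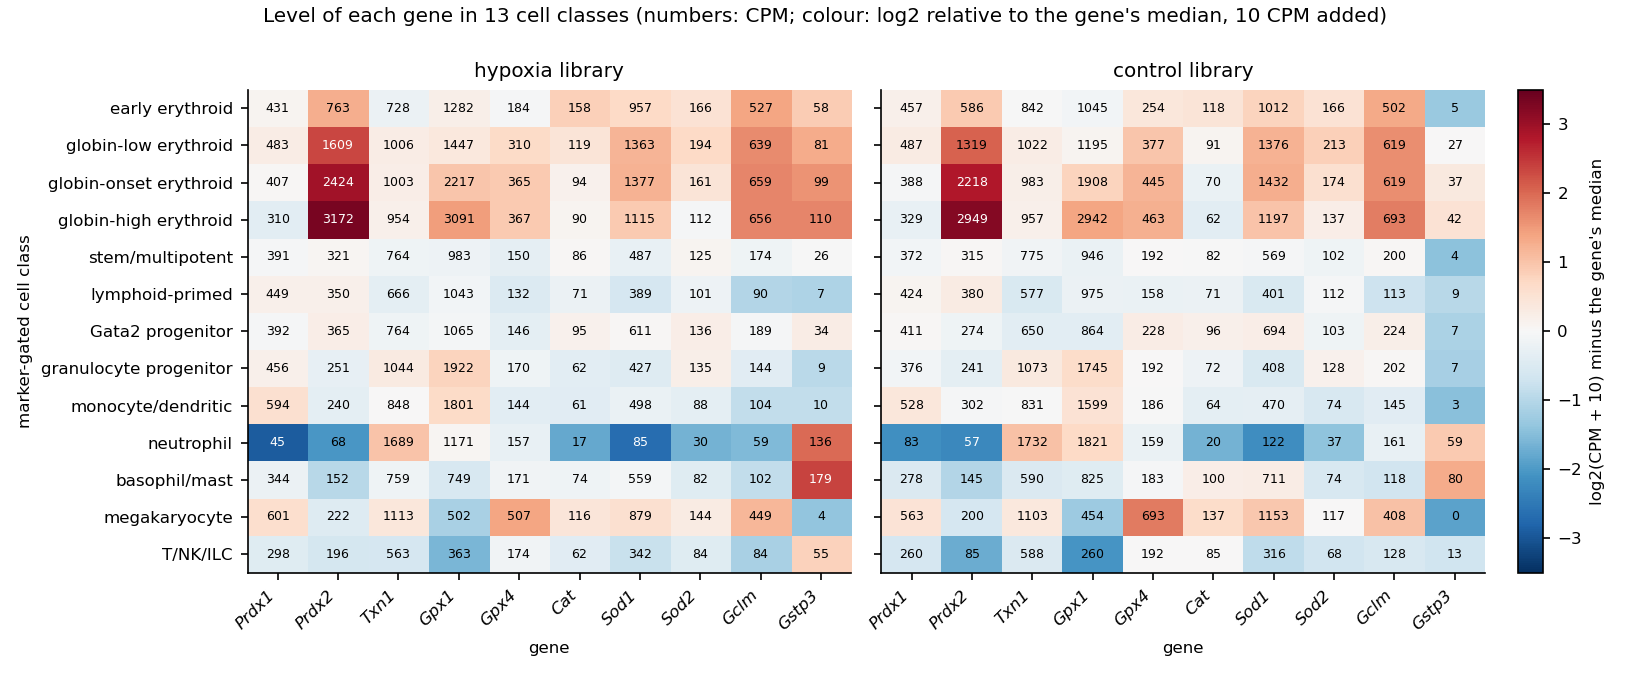
Level of each gene (columns) in 13 marker-gated cell classes (rows) of the hypoxia library (left) and the control library (right). Numbers are CPM, and colour is log2(CPM + 10) minus the gene's median over all classes of both libraries. Prdx2 rises from 763 to 3172 CPM over the erythroid rows in hypoxia, and neutrophils hold 44.6 CPM of Prdx1 beside 1689 CPM of Txn1.

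A gene was called higher or lower where log2(CPM + 10) differed by at least 1.5-fold between the libraries, with at least 50 UMIs over both. In the erythroid stages 4 of 40 pairs of gene and stage were higher and 0 lower, and all 4 were Gstp3. In the other classes 82 of 90 pairs had enough UMIs, of which 5 were higher and 4 lower. The higher ones were Gstp3 in stem/multipotent, monocyte/dendritic, neutrophil and basophil/mast cells and Prdx2 in T/NK/ILC cells. The lower ones were Gpx4 in Gata2 progenitors and Prdx1, Gpx1 and Gclm in neutrophils.

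These counts are read against the share of all tested genes past the same limit. In the early erythroid stage 1 of 10 genes was higher and 0 lower, where 5.92% and 4.52% of all tested genes were. The globin-low stage had 1 higher and 0 lower, against 2.15% and 1.25%, and the globin-onset stage the same, against 2.47% and 1.71%. In the globin-high stage the counts were again 1 and 0, against 4.26% and 2.51%. Among stem/multipotent cells 1 was higher and 0 lower, against 3.35% and 3.39%. Of 9 genes with enough UMIs in lymphoid-primed cells 0 were called, against 4.37% higher and 2.73% lower of all. Gata2 progenitors had 0 of 9 higher and 1 lower, against 5.03% and 6.27%. Granulocyte progenitors had 0 in either direction, against 2.02% and 1.31%. In monocyte/dendritic cells 1 was higher and 0 lower, against 3.94% and 2.07%. Of 8 genes with enough UMIs in neutrophils 1 was higher and 3 lower, against 10.1% and 9.21% of all. In basophil/mast cells 1 was higher and 0 lower, against 3.17% and 3.12%, and megakaryocytes had 0 of 9 in either direction, against 3.02% and 3.12%. In T/NK/ILC cells 1 of 7 was higher and 0 lower, against 11.1% and 10.3%. With 10 genes in a class, 1 call is 10% of them, so a class with 1 call says little about the set as a whole. The median log2 difference of the 10 genes in the 4 erythroid stages lay between -0.04 and 0.08, beside medians of 0.00 to 0.05 for all tested genes.

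**Figure D2:**
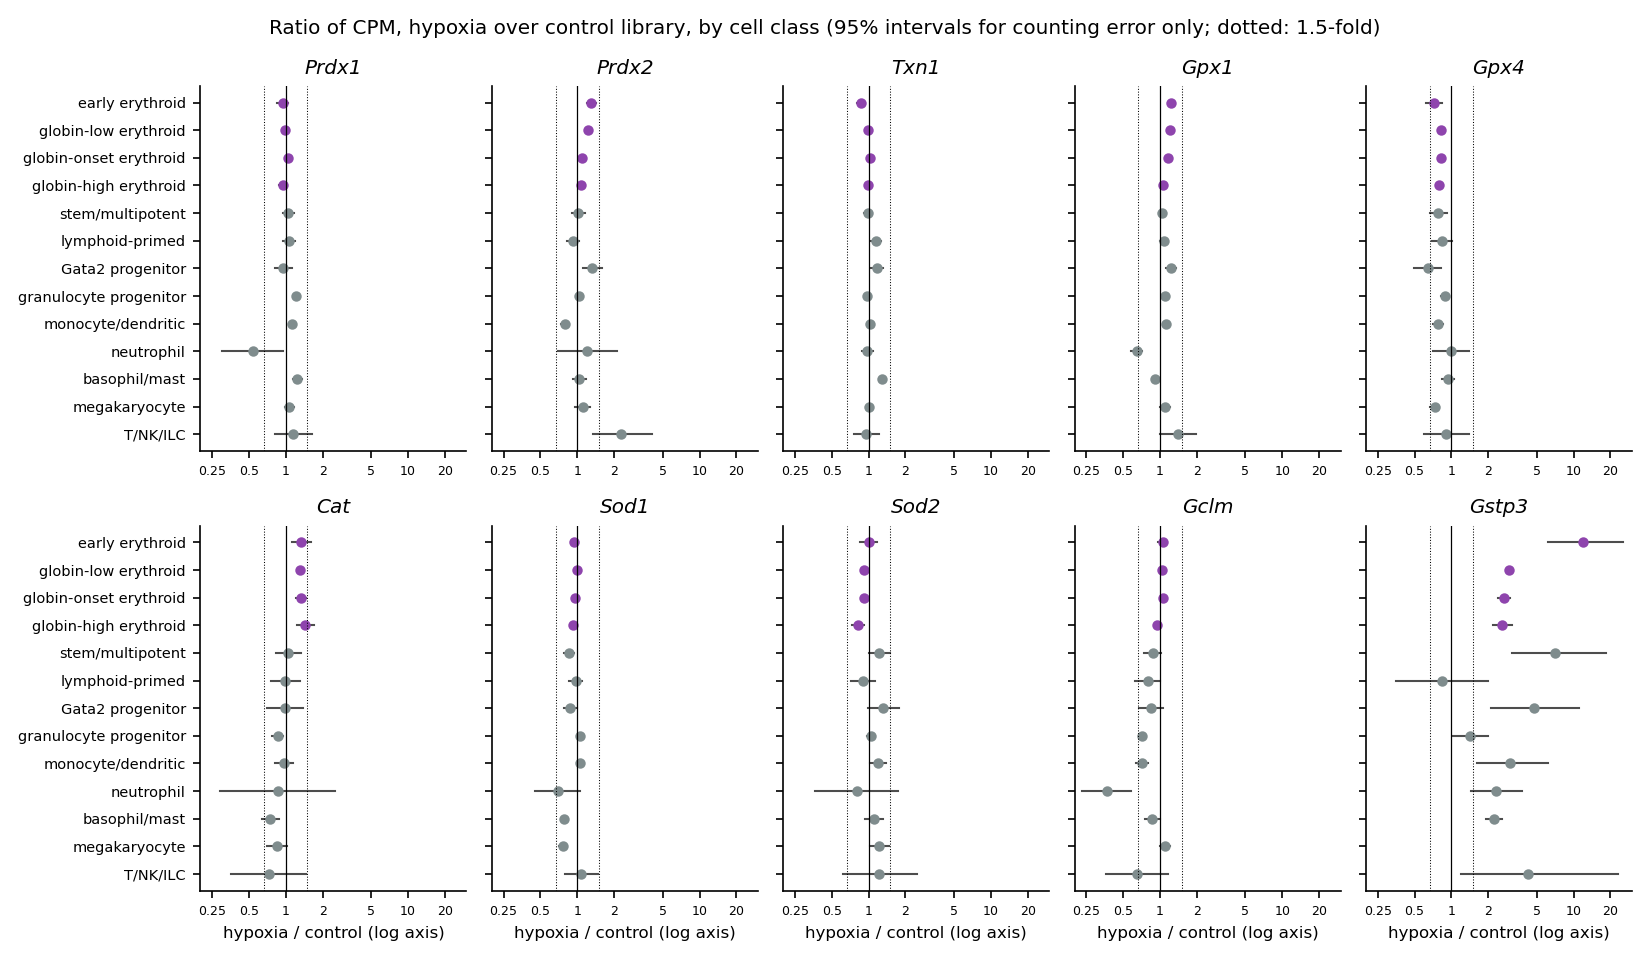
Ratio of CPM, hypoxia over control library (log axis), for each gene by cell class, with exact 95% intervals for counting error. Purple points are erythroid stages, grey points are other classes, and dotted lines mark 1.5-fold. Gpx4 lies to the left of 1 in all 13 classes, and Gstp3 to the right in 11 of the 12 classes where a ratio could be formed.

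Prdx2, the abundant peroxiredoxin of red cells, followed globin. Its level over the early, globin-low, globin-onset and globin-high stages was 763, 1609, 2424 and 3172 CPM in hypoxia and 586, 1319, 2218 and 2949 CPM in control. Each stage was above the one before it in both libraries, and the globin-high level was 4.16-fold (95% interval 3.92 to 4.40) the early level in hypoxia and 5.03-fold (4.74 to 5.35) in control. Hypoxia was above control in all 4 stages, by 1.30-fold (1.20 to 1.41), 1.22-fold (1.21 to 1.23), 1.09-fold (1.08 to 1.11) and 1.08-fold (1.05 to 1.10), none of which reached 1.5-fold. Over the 4 stages pooled the ratio was 1.33, above that of every single stage, with globin-high cells making up 634 of 3438 erythroid cells in hypoxia and 132 of 2314 in control. Erythroid cells outside the early stage were also cut into 11 finer steps of globin content. There the ratio was above 1 in 11 of 11, from 1.03 to 1.28. The 1.28 was that of the lowest step, where median globin was 0.252 per 10000 in hypoxia and 0 in control. Above that step the ratio was at most 1.11. The globin-low stage as a whole was also unequal, with median globin of 0.777 per 10000 in hypoxia and 0.325 in control.

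Outside the erythroid stages Prdx2 lay between 68.0 CPM in neutrophils and 365 CPM in Gata2 progenitors in hypoxia, and between 56.7 CPM in neutrophils and 380 CPM (379.8) in lymphoid-primed cells in control. Of the 12 pairs of neighbours in the order of the 13 classes, 6 in hypoxia and 5 in control had overlapping intervals. Prdx2 was 2.30-fold higher (1.35 to 4.06) in T/NK/ILC cells of the hypoxia library, on 54 against 20 UMIs, and 0.794 times the control level (0.737 to 0.857) in monocyte/dendritic cells. In T/NK/ILC cells the median depth was 2703 UMIs in hypoxia and 3660 in control. There Hba-a1 stood at 0.444% and 0.185% of its erythroid level, Car1 at 2.02% and 2.01% and Aqp1 at 2.31% and 2.26%. The part of free erythroid RNA in the Prdx2 difference was not tested.

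Prdx1, the broadly expressed cytosolic peroxiredoxin, fell from the globin-low stage on, where Prdx2 rose. It was at 431, 483, 407 and 310 CPM (309.6) in hypoxia and 457, 487, 388 and 329 CPM in control, so that the globin-high level was 0.640 times (0.619 to 0.663) and 0.676 times (0.635 to 0.719) the globin-low level. The ratio of hypoxia to control lay between 0.940 and 1.05 over the stages. Levels in most other classes were similar to those in erythroid cells, up to 601 and 563 CPM in megakaryocytes and 594 and 528 CPM in monocyte/dendritic cells, while neutrophils had 44.6 and 82.9 CPM. The ratio was 1.21 (1.16 to 1.27) in granulocyte progenitors, 1.13 (1.07 to 1.19) in monocyte/dendritic cells and 1.24 (1.13 to 1.35) in basophil/mast cells. In neutrophils it was 0.538 (upper bound 0.941) on 21 against 38 UMIs, and this call depended on the removal of doublets: with the cells marked as doublets kept, the log2 difference was 0.17 in place of -0.77.

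Txn1, the electron donor of peroxiredoxins, was nearly level over the later erythroid stages, at 1006, 1003 and 954 CPM in hypoxia and 1022, 983 and 957 CPM in control. The early stage was lower, at 728 and 842 CPM, and there hypoxia stood at 0.865 times (0.802 to 0.932) the control level. Neutrophils had 1689 and 1732 CPM, and the lowest levels were in T/NK/ILC cells (563 CPM) in hypoxia and in lymphoid-primed cells (577 CPM) in control. Over all 13 classes the ratio stayed between 0.865 and 1.29, the highest in basophil/mast cells (1.21 to 1.36), and 0 classes were called. Neighbouring classes had overlapping intervals in 7 of 12 pairs in each library.

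**Figure D3:**
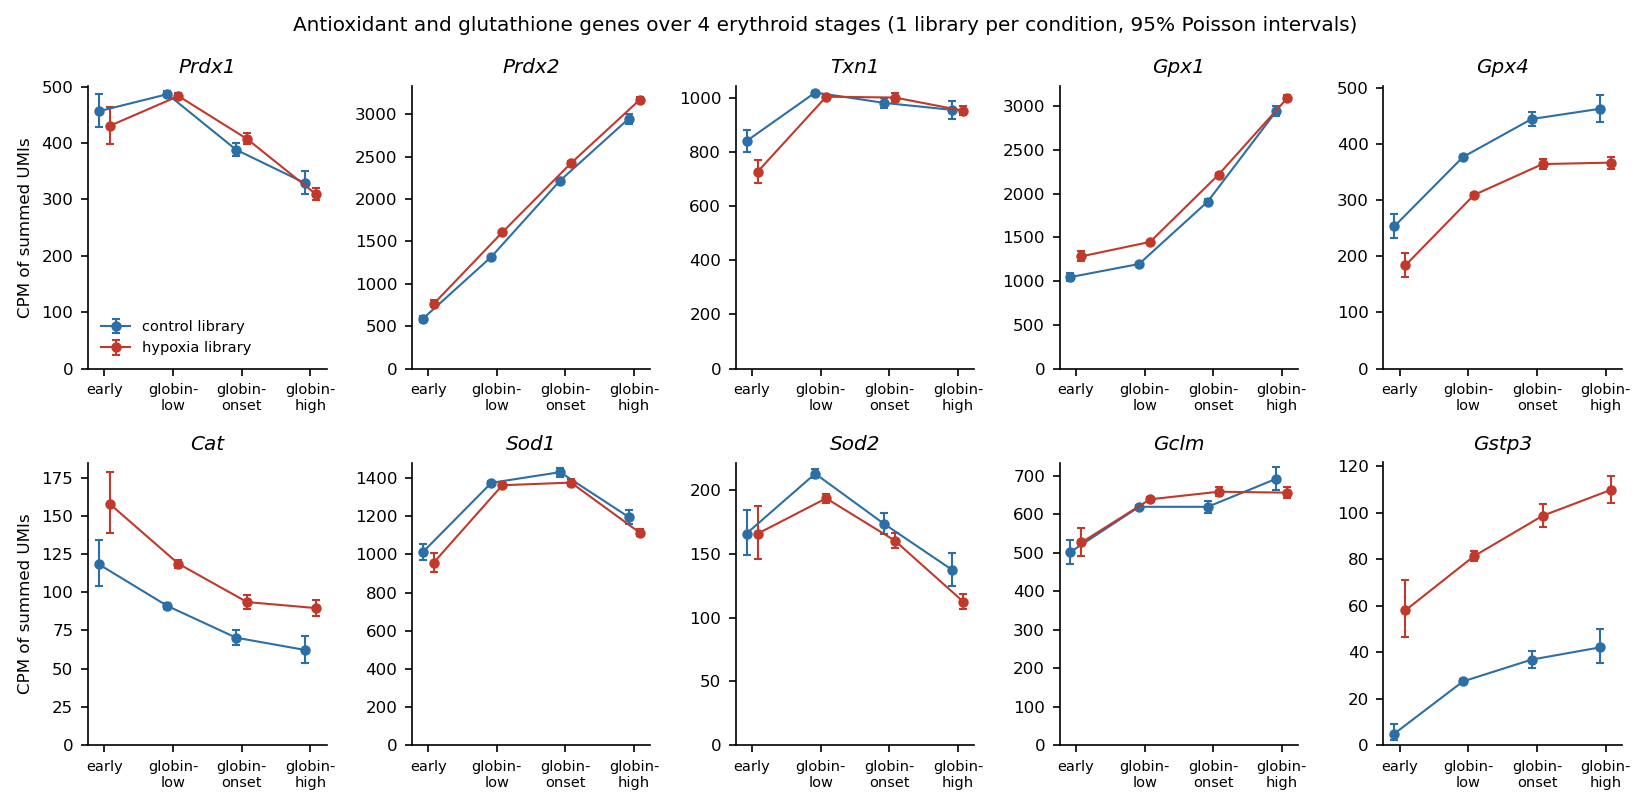
Level (CPM of summed UMIs, y axis from 0) of each gene over the 4 erythroid stages (x axis) in the control library (blue) and the hypoxia library (red), with 95% Poisson intervals. Prdx2 and Gpx1 rise in both libraries, and Gstp3 is higher in the hypoxia library at each stage (110 against 42.0 CPM in the globin-high stage).

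Gpx1, the main cytosolic glutathione peroxidase, rose with globin. It was at 1282, 1447, 2217 and 3091 CPM over the stages in hypoxia and 1045, 1195, 1908 and 2942 CPM in control, and the globin-high level was 2.14-fold (2.11 to 2.16) and 2.46-fold (2.41 to 2.52) the globin-low level. Of 10822 and 10612 genes with enough UMIs, 9.40% in hypoxia and 9.07% in control were at least 1.5-fold higher in the globin-high than in the globin-low stage, and Prdx2 and Gpx1 were the 2 among these 10 genes in both libraries, with 10 CPM added. Without that addition the ratio of Gstp3 in control, 1.54, is also past 1.5-fold. The hypoxia library was above control by 1.23-fold (1.15 to 1.30), 1.21-fold (1.20 to 1.22), 1.16-fold (1.14 to 1.18) and 1.05-fold (1.03 to 1.07). The last of these changed sign under another weighting: with each cell counted alike, the log2 difference in the globin-high stage was -0.22 in place of 0.07. In that stage the 90th percentile of cells was at 43.6 Gpx1 UMIs per 10000 in hypoxia and 80.9 in control, where the medians were 30.9 and 27.9. In the uppermost of the 11 globin steps, Gpx1 was at 3998 CPM in 148 hypoxia cells and 5416 CPM in 32 control cells, whose median globin was 404 and 2029 per 10000. Without the cells of that step the log2 difference of the globin-high stage was 0.15.

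Gpx1 was also high in myeloid cells. Granulocyte progenitors had 1922 and 1745 CPM, monocyte/dendritic cells 1801 and 1599 CPM, and neutrophils 1171 and 1821 CPM. Hypoxia was 0.643 times (0.576 to 0.717) the control level in neutrophils, on 551 against 835 UMIs, while it was 1.10-fold (1.08 to 1.12) higher in granulocyte progenitors and 1.13-fold (1.09 to 1.16) in monocyte/dendritic cells. The lowest levels were those of T/NK/ILC cells (363 and 260.1 CPM) and megakaryocytes (502 and 454 CPM).

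Gpx4, the lipid peroxide reductase, was lower in hypoxia in all 13 classes, with ratios from 0.640 in Gata2 progenitors to 0.988 in neutrophils and intervals below 1 in 9 classes. The stages had 184, 310 (309.5), 365 and 367 CPM in hypoxia and 254, 377, 445 and 463 CPM in control, so the level was higher in the globin-onset than in the early stage in both libraries. From the globin-onset to the globin-high stage it differed by no more than counting error, with ratios of 1.01 (0.969 to 1.05) and 1.04 (0.981 to 1.10). Hypoxia was lower at each stage: 0.725 times (0.625 to 0.838), 0.820 times (0.806 to 0.835), 0.819 times (0.788 to 0.852) and 0.793 times (0.747 to 0.841). In the 11 finer globin steps the ratio lay between 0.770 and 0.849. The largest difference was in Gata2 progenitors, where 145.7 CPM (77 UMIs) stood against 228 CPM (347 UMIs), a ratio of 0.640 (0.493 to 0.821). Megakaryocytes had the highest level, 507 against 693 CPM, a ratio of 0.731 (0.670 to 0.797). The direction was kept in 12 of the 13 classes under every alternative tried, neutrophils being the exception (log2 differences up to 0.19). These values are uncertain in 1 respect: 61.7% of the 50-base stretches of the longest coding Gpx4 transcript, and 98.4% of those in its last 300 bases, also occur in transcripts of 2 other genes, above all the pseudogene Gpx4-ps2, and no source used here says how such reads were counted.

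**Figure D4:**
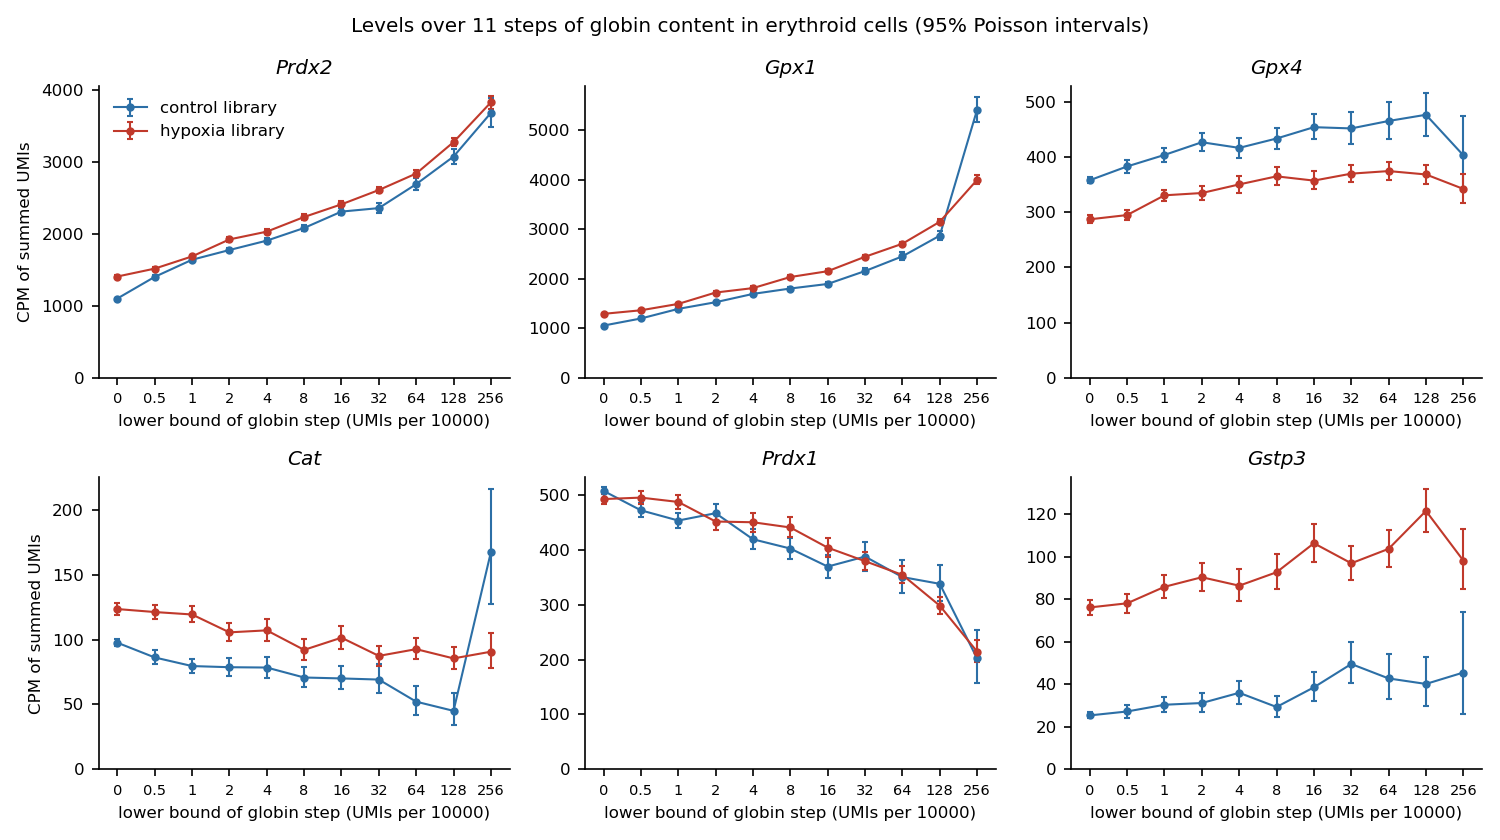
Level (CPM of summed UMIs, y axis from 0) of 6 genes in erythroid cells outside the early stage, cut into 11 steps of globin content (x axis, lower bound of each step in globin UMIs per 10000) in the control library (blue) and the hypoxia library (red), with 95% Poisson intervals. Gpx4 is below and Gstp3 above control in all 11 steps, and Gpx1 and Cat of the control library jump in the last step, which holds 32 control cells.

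Catalase (Cat), a peroxisomal enzyme that splits hydrogen peroxide without a cofactor donor, was highest in the early stage among erythroid cells. Its level was 158, 119, 93.5 and 89.6 CPM in hypoxia and 118, 91.0, 70.2 and 62.2 CPM in control. Hypoxia was higher by 1.33-fold (1.11 to 1.60), 1.30-fold (1.26 to 1.35), 1.33-fold (1.22 to 1.46) and 1.44-fold (1.24 to 1.68), all under the limit for a call. The globin-high value turned with the weighting of cells, to a log2 difference of -0.21 with each cell counted alike, and was 0.75 without the cells of the uppermost globin step, which passes 1.5-fold. Within the control library the ratio of the globin-high to the globin-low level was likewise 0.684, 1.24 and 0.539 under these 3 settings, so its direction in the control depended on how cells were weighted. In the 32 control cells of that step Cat was at 168 CPM. The other classes went the other way or stayed near 1: the ratio was below 1 in 8 of 9, with intervals below 1 in granulocyte progenitors (0.857, 0.771 to 0.952) and basophil/mast cells (0.744, 0.636 to 0.872). The lowest Cat was in neutrophils, on 8 and 9 UMIs, and 10 of 12 neighbouring classes in hypoxia and 11 of 12 in control had overlapping intervals.

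Sod1, the copper and zinc enzyme of the cytosol, was highest in the globin-low and globin-onset stages, at 1363 and 1377 CPM in hypoxia and 1376 and 1432 CPM in control. The early stage had 957 and 1012 CPM and the globin-high stage 1115 and 1197 CPM. Hypoxia was at 0.932 to 0.991 times the control level over the 4 stages. The lowest of these, in the globin-high stage, turned with the weighting of cells. Its log2 difference was 0.008 with each cell counted alike and 0.02 with thinned counts, in place of -0.10. Outside these stages megakaryocytes had the highest level, 879 and 1153 CPM, a ratio of 0.762 (0.713 to 0.814). Gata2 progenitors (611 and 694 CPM) and basophil/mast cells (559 and 711 CPM) had overlapping intervals in both libraries, and the ratio in basophil/mast cells was 0.785 (0.741 to 0.832). Neutrophils had 85.0 and 122 CPM. Of the 50-base stretches of Sod1, 23.1% occur in transcripts of 1 other gene, the predicted gene Gm8566.

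Sod2, the manganese enzyme of mitochondria, peaked earlier. The stages had 166, 194, 161 and 112 CPM in hypoxia and 166, 213, 174 and 137 CPM in control, and the globin-high level was 0.580 times (0.548 to 0.614) and 0.645 times (0.585 to 0.709) the globin-low one. At least 1.5-fold lower in the globin-high stage were 16.2% and 15.4% of all genes, and of the 10 genes 2 in hypoxia and 1 in control. Hypoxia was below control in the globin-low (0.909, 0.888 to 0.931), globin-onset (0.924, 0.869 to 0.982) and globin-high stages (0.818, 0.734 to 0.913). The median mitochondrial share of UMIs in these 3 stages was 7.66%, 7.00% and 6.25% in hypoxia and 6.96%, 6.23% and 5.19% in control. In the other classes the ratio was above 1 in 7 of 9, with intervals above 1 in monocyte/dendritic cells (1.19, 1.03 to 1.38) and megakaryocytes (1.23, 1.02 to 1.47). In monocyte/dendritic cells it turned when clusters replaced the gates, to a log2 difference of -0.12 from 0.22.

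Gclm, which lowers the amount of substrate that glutamate-cysteine ligase needs, marked the erythroid lineage from its start. The stages had 527, 639, 659 and 656 CPM in hypoxia and 502, 619, 619 and 693 CPM in control, while the stem/multipotent class had 174 and 200.1 CPM and granulocyte progenitors 144 and 202 CPM. Megakaryocytes had the next highest level, 449 and 408 CPM, spread unevenly over cells: 1 cell held 23.4% of the Gclm UMIs in hypoxia and 1 held 8.48% in control, and the median cell had 2.43 and 3.02 UMIs per 10000, against 6.28 and 6.08 in the globin-low stage. Without the top cell of each library the log2 difference in megakaryocytes was -0.10 in place of 0.13. The libraries differed little in the erythroid stages (0.948 to 1.06), and the sign in the globin-low stage depended on scaling, with a log2 difference of 0.04 by totals and -0.04 with TMM factors. In 8 of the other 9 classes the ratio was below 1. It was 0.712 (0.667 to 0.760) in granulocyte progenitors, 0.715 (0.640 to 0.799) in monocyte/dendritic cells and 0.369 (0.230 to 0.576) in neutrophils, there on 28 against 74 UMIs. Gclm is 1 of the 2 ligase subunits. The catalytic subunit Gclc was at 175 and 166 CPM in the globin-low stage, a ratio of 1.05 (1.02 to 1.08).

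Gstp3 had the largest difference between the libraries. In the 4 erythroid stages it was at 57.9, 81.2, 98.6 and 109.8 CPM in hypoxia and at 4.89, 27.4, 36.7 and 42.0 CPM in control. No hypoxia stage was as low as the highest control stage, and each later stage had a higher level in both libraries, though in control the step from globin-onset to globin-high, 1.14-fold (0.931 to 1.40), was within counting error. The ratio was 11.8 (6.15 to 25.5) in the early stage, on 91 against 10 UMIs, 2.97 (2.82 to 3.13) in the globin-low stage, on 5121 against 2127 UMIs, 2.68 (2.40 to 3.01) in the globin-onset and 2.61 (2.19 to 3.15) in the globin-high stage. In the finer globin steps, which leave out the early stage, it lay between 1.96 and 3.17, above 1 in 11 of 11. Early-stage cells of the 2 libraries differed in their gate genes. Median Car1 was 15.6 per 10000 in hypoxia and 10.5 in control, and median Gata2 3.86 and 5.36. The part of this in the early ratio was not tested. Beyond the erythroid lineage the ratio was 7.03 (3.16 to 18.4) in stem/multipotent cells, on 47 against 7 UMIs. Monocyte/dendritic cells had 10.1 against 3.38 CPM, on 97 against 11 UMIs, and the interval of the ratio was 1.61 to 6.21. Basophil/mast cells had the highest level in both libraries, 179 against 79.8 CPM, a ratio of 2.24 (1.92 to 2.61). Neutrophils, whose level had an overlapping interval in each library, had 136 against 58.9 CPM, a ratio of 2.31 (1.45 to 3.77). Granulocyte progenitors had 9.28 against 6.54 CPM, a ratio of 1.42 (1.03 to 1.99), and lymphoid-primed cells 7.48 against 8.94 CPM, a ratio of 0.837 (0.352 to 2.01) on 13 and 12 UMIs. Gata2 progenitors had 34.1 against 7.22 CPM, on 18 and 11 UMIs. In T/NK/ILC cells the counts were 15 and 3 UMIs, a ratio of 4.26 (1.21 to 23.0), and in megakaryocytes 6 and 0. A count of 0 there allows up to 1.17 CPM in control (3 UMIs), beside 4.18 CPM in hypoxia, and the exact interval of the ratio began at 2.11.

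The other pi-class genes stood apart from it. Gstp3 lies on the minus strand of chromosome 19 (4057477 to 4059569, GRCm38, 7 exons in its longest coding transcript), and 0 of its 50-base stretches occur in transcripts of another gene. Gstp1, the widely expressed pi-class transferase, was at 106 against 117 CPM in the globin-low stage, 85.8 against 80.9 CPM in the globin-high stage and 33.1 against 39.5 CPM in basophil/mast cells. Gstp2 was at 3.01 against 1.98 CPM in the globin-low stage.

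Counted per cell, the difference was spread over many cells. After every cell was thinned to 5000 UMIs, 32.1% (95% interval 30.1 to 34.1) of 2101 globin-low cells had a Gstp3 UMI in hypoxia and 12.8% (11.3 to 14.5) of 1807 in control, and without thinning these shares were 83.1% and 59.8%. Cells with 3 or more thinned UMIs were 29 in hypoxia and 2 in control. The early stage had 21.9% (14.7 to 30.6) of 114 cells against 0.847% (0.0215 to 4.63) of 118, and the globin-high stage 38.1% of 627 against 23.0% of 126. In basophil/mast cells the shares were 56.1% (51.2 to 60.9) of 419 cells and 34.3% (27.3 to 41.7) of 178. In megakaryocytes, where the gene was lowest, 1 of 51 and 0 of 82 thinned cells had a UMI, and 0 of 82 allows a share of up to 3.66% when 3 cells are taken as the limit of a count of 0, or 4.40% by the exact interval. Unthinned cells had medians of 29686 and 42214 UMIs in the globin-low stage and 18629 and 20249 in megakaryocytes. The plot of shares of cells by class gives the values of both libraries.

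**Figure D5:**
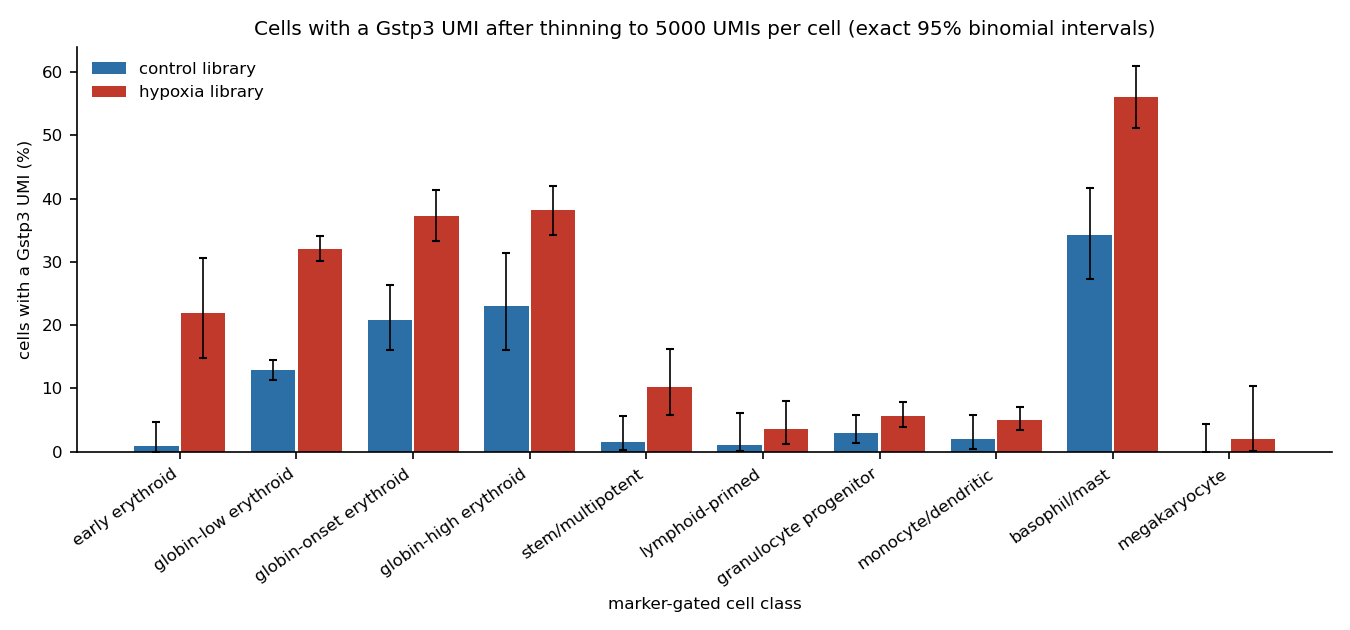
Share of cells with a Gstp3 UMI (y axis, percent, from 0) in 10 cell classes (x axis) after thinning each cell to 5000 UMIs, in the control library (blue) and the hypoxia library (red), with exact 95% binomial intervals. Classes with under 50 thinned cells in a library are left out. The intervals of the 2 libraries do not overlap in early, globin-low, globin-onset and globin-high erythroid, stem/multipotent and basophil/mast cells.

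The wider redox network, 95 genes in 10 lists with none of the 10 genes, was counted by the same rule. In the globin-low stage 1 of 81 genes with enough UMIs was higher and 0 lower, and over the 4 stages 7 of 279 pairs of gene and stage were higher (2.51%) and 1 lower (0.358%), where 2.15% to 5.92% of all tested genes were higher and 1.25% to 4.52% lower in a stage. In that stage the median log2 difference was 0.07 for 15 genes of the thioredoxin system, 0.06 for 14 glutathione transferases, 0.10 for 9 genes of NADPH supply, 0.02 for 13 NRF2 pathway genes and 0.05 for 8 genes of selenoprotein synthesis, beside 0.03 for all tested genes. The medians were -0.12 for 5 glutathione peroxidases and glutaredoxins, -0.07 for 7 genes of glutathione synthesis and turnover and -0.22 for the 3 FOXO factors. Bach2, a repressor that competes with NRF2 for its sites, was the 1 gene called in the globin-low stage, at 7.46 against 1.57 CPM. In the other 9 classes 26 of 528 pairs were higher (4.92%) and 13 lower (2.46%), within the ranges over these classes for all tested genes, 2.02% to 11.1% higher and 1.31% to 10.3% lower. Basophil/mast cells had more Gsr, the reductase that restores glutathione (219 against 110.5 CPM), and more of the glutaredoxin Glrx (112.5 against 53.9 CPM). In the globin-low stage Gsr went the other way, at 70.7 against 100.9 CPM. Neutrophils had less of the transferases Gstm1 (336 against 735 CPM), Mgst2 (187 against 325 CPM) and Gsto1 (40.4 against 93.8 CPM). Hmox1, the inducible haem oxygenase, was lower in monocyte/dendritic cells (5.65 against 19.0 CPM), and Bach2 was higher there (20.8 against 10.1 CPM). Megakaryocytes had more of the NADPH oxidase subunit Ncf1 (73.9 against 43.2 CPM). In Gata2 progenitors, where hypoxia had 51 cells, Txnrd3 (53.0 against 21.7 CPM) and Abcc1 (70.0 against 32.2 CPM) were higher, and Prdx5 (77.6 against 127 CPM), Foxo4 (22.7 against 49.9 CPM) and Sephs2 (34.1 against 68.9 CPM) were lower. Idh1 was higher in lymphoid-primed cells (32.2 against 17.9 CPM).

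Across the 13 classes of both libraries (26 points that share 2 libraries and their depths), the level of each gene was set against those of 4043 other genes by the Pearson correlation of log2(CPM + 10), as a description. The genes most like Prdx2 were Pole3 (r = 0.97), March5 (r = 0.97) and Alad (r = 0.96), the last of them an enzyme of haem synthesis. Gclm was most like Epor (r = 0.95), the erythropoietin receptor and itself a gate gene of the erythroid classes, then Atpif1 (r = 0.93) and Lias (r = 0.91). Among the genes most like Gpx4 were Actn4 and Daam1 (both r = 0.91). Sod2 was most like the chaperonin subunit Cct4 (r = 0.97), and Sod1 like Cfdp1 (r = 0.95), Zwint and the thioredoxin-like Txnl1 (both r = 0.94). Prdx1 was most like Sept2 (r = 0.94), Ywhae and Ptma (both r = 0.93). The closest gene was further away for Gpx1 (Slc43a3, r = 0.89), Cat (Galnt1, r = 0.88), Txn1 (Ppp1r2, r = 0.87) and Gstp3 (Cnppd1, r = 0.83). Among the 10 genes themselves Sod1 and Sod2 were most alike with r = 0.87, followed by Sod1 and Gclm with r = 0.83, while Prdx1 and Gstp3 had r = -0.52. Prdx1, Sod1 and Gclm, the 3 with the response element core in their window, had r = 0.83 for Sod1 with Gclm, r = 0.73 for Prdx1 with Sod1 and r = 0.38 for Prdx1 with Gclm. These values lie within the range for pairs of 1 of the 3 with a gene without the core. That range ran from -0.52 (Prdx1 with Gstp3) to 0.87 (Sod1 with Sod2).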

How the data were processed

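Per the file headers, the authors deposited error-corrected molecule counts (UMIs) for each cell, from version 1.7.1 of the BD WTA Rhapsody Analysis Pipeline, against GENCODE vM19 (GRCm38). The submitters' processing notes also list Bowtie2. No source used here says how cells were called. The tables held 6406 hypoxia cells (26060 genes, 137504361 UMIs) and 3956 control cells (26039 genes, 121415081 UMIs), and 23 cell index numbers occurred in both.

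Cells with at least 500 UMIs, 200 genes and under 20% mitochondrial UMIs were kept, and 112 hypoxia and 36 control cells that Scrublet (scanpy 1.11.5, each library alone) marked as doublets were removed. Cells passing more than 1 lineage gate (35 in hypoxia and 19 in control) entered no class. Nor did the cells that the gates left over, 254 in hypoxia (4.04% of kept cells) and 240 in control (6.13%). Cells past the erythroid limit with low globin and Gata2 but too little Car1 were also left over in this way. UMIs were summed per class, scaled to CPM and given exact Poisson intervals, and ratios exact conditional intervals, all at 95%. They treat UMIs as independent and leave out variation between cells, animals and preparations. Shares have exact binomial intervals. A call is a 1.5-fold difference of log2(CPM + 10), which understates low genes, and needs 50 UMIs in the sum of both libraries. Ratios and calls were tested on simulated counts. Alternatives used TMM factors from edgeR 4.0.16 (R 4.3.3), median-of-ratios size factors, other cell filters, gates, clusters (leidenalg 0.10.2), weights, pseudocounts and limits. Thinned shares left out 838 shallower cells over both libraries and all classes. Beside the 10 genes, list genes are named where called in the globin-low stage or in the class with most calls of their list, up to 4 per list and direction, and like genes are the top 3 with a mean of at least 50 CPM. Some genes that this rule names are not reported here. The genes, lists and gates were chosen with earlier results of these data known.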

Additional observations from a re-analysis of the deposited data

How the results depend on the processing

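The 10 genes' 4 higher and 0 lower calls in erythroid stages were 4 and 0 under every planned setting but Leiden clusters, which formed 2 erythroid classes and gave 2 and 0. Of the settings chosen after seeing the data, leaving out the uppermost globin step gave 5 higher and counting thinned cells 3. In the other classes (5 higher, 4 lower) 50 added CPM gave 3 higher and 2 lower, the stricter cell filter 1 higher over the 5 classes it left (3 there before), a limit of 2-fold 1 lower, Leiden clusters 2 lower and thinned counts 2 lower over 6 classes (0 there before). For the wider lists in erythroid stages (7 higher, 1 lower), 1 added CPM gave 30 higher and 7 lower, 50 added CPM 2 and 0, a limit of 2-fold 2 and 0, and thinned counts 16 higher. The mean of the cells' own CPM gave 2 lower there, and doublets kept, gates on thinned cells and weighting to the control's globin each 0. In the other classes (26 higher, 13 lower), 50 added CPM gave 8 higher and 3 lower, no minimum of UMIs 51 and 24, and a limit of 2-fold 2 and 3. Lower there were 25 with the mean of the cells' own CPM, 6 with Leiden clusters, 20 with 1 added CPM and 15 with thinned counts over 6 classes (4 there before). Prdx1 in neutrophils turned to 0.17 (log2) with doublets kept. The cause was not tested. Of 75 pairs of gene and class whose interval left out 1, a setting covered between 32 and 75. At most 3 turned direction under any 1 setting: 3 of 56 with Leiden clusters, 3 of 60 with thinned counts and 3 of 75 with the mean of the cells' own CPM. The pairs that turned were not the same under each setting. Gstp3 kept its direction in 9 of 9 classes where it had at least 50 UMIs over both libraries. Lymphoid-primed cells, whose Gstp3 ratio was 0.837, fell under that minimum and were not among them. Depth limits neutrophils and T/NK/ILC cells most. No paired analysis was possible because each condition had 1 library.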

Other observations

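Eosinophils (64 hypoxia and 19 control cells) and B-lineage cells (27 and 24) were too few in at least 1 library to be described as classes. In eosinophils, Gpx1 stood at 1369 CPM in hypoxia and 1501 CPM in control, Txn1 at 559 and 544 CPM, Cat at 119 and 103 CPM, and the Gpx4 ratio was 0.422 (0.271 to 0.653) on 40 and 50 UMIs. Gstp3 was at 0 UMIs in eosinophils and in B-lineage cells of both libraries. B-lineage cells had Prdx1 at 411 and 430.2 CPM, Gpx1 at 628 and 356 CPM, on 107 and 62 UMIs, and Gclm at 58.7 and 120.5 CPM, on 10 and 21 UMIs.

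Some genes of the wider redox lists passed 1.5-fold in an erythroid stage other than the globin-low one. They fall outside the rule for naming and were chosen after their values were seen. In the early stage these were Glrx (63.0 against 20.5 CPM), Gstm1 (68.1 against 20.5 CPM) and Sesn3 (38.2 against 15.2 CPM), all higher in hypoxia, and Gsta4 (8.27 against 18.6 CPM), which was lower. In the globin-high stage Txnip (74.4 against 36.3 CPM), Nqo1 (49.0 against 25.3 CPM) and Gstt2 (23.5 against 8.53 CPM) were higher in hypoxia.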
